A study of Mus musculus with 24 samples.

Results

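Gene expression in the cecum of conditional Cdx2 mutant mice was measured in 2 sets of libraries that carry the same title, Cdx2-/- cecum, and the sets are compared here with each other. Their members are the 3 libraries coded T21_1 to T21_3, called set 1 (replicates 1 to 3), and the 3 coded L1dt, L2dt and L3dt, called set 2 (replicates 4 to 6), chosen by these codes and not by any measured value. They are 6 of the 24 libraries of the series, and the genes described are the 34850 autosomal ones among 39179 listed. All 6 have the genotype Cdx2f/f::AhCreERT, with floxed alleles of the intestinal homeobox gene Cdx2 and a tamoxifen-dependent Cre driven by the Cyp1a1 (Ah) promoter, and all 6 were treated with Tamoxifen and β-naphthoflavone, the inducer of that promoter. Recombination is therefore limited to cells in which that promoter answers the inducer. The other 18 libraries, used only as reference levels, are untreated WT cecum, WT stomach and Cdx2+/- cecum, treated Cdx2-/-;Apc+/- cecum and ileum (Cdx2f/f::AhCreERT::ApcD14/+) and untreated Apc+/- ileum, with 3 libraries each. The labels give no strain, sex, age, date or batch, and do not state whether replicates come from separate animals, so the tests rest on the spread between libraries, which may be technical.

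Some of the genes described are known to differ between laboratory mouse stocks, and others to answer stress. The H2 complex on chromosome 17 is the mouse major histocompatibility complex: its classical class I and class II genes encode the molecules that present peptides to T cells, it is highly polymorphic, and some haplotypes do not make the class II E molecule. Processed pseudogenes are copies of messenger RNAs inserted in the genome; they resemble their parent genes closely, and short reads can be assigned to either. Heat shock genes such as Hspa1a and Hspa1b are silent or low in resting tissue and are switched on quickly by heat and other stress that unfolds proteins, through the factor Hsf1. Immediate early genes answer many stimuli on a similar time scale.

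Before the comparison, the targeted gene and the libraries were examined. Cdx2 was at 287, 168 and 165 CPM (read counts scaled to a common library size, with TMM factors) in set 1 and at 148, 130 and 349 CPM in set 2, so the sets overlapped. It was at 115 to 118 CPM in Cdx2+/- cecum and 408 to 663 CPM in WT cecum, so all 6 libraries labelled Cdx2-/- held less Cdx2 RNA than WT cecum but more than every library labelled Cdx2+/-, which goes against the order of the labels. The counts cover the whole gene and the labels do not say which part is deleted, so they do not test the deletion itself. Its log2 difference, always set 2 minus set 1, was 0.02 ± 0.47 (SE; edgeR adjusted p = 0.989), and that of its paralog Cdx1 was 0.32 ± 0.77 (adjusted p = 0.835, edgeR). Gene reads numbered 57344975 to 87975179 in set 1 and 41967173 to 46006214 in set 2. Xist, made from the inactive X chromosome, was at 666 to 816 CPM in set 1 and at most 0.979 CPM in set 2, and the Y-linked Ddx3y was at most 0.25 CPM in set 1 and at least 50.2 CPM in set 2. The sets thus differ in sex, and the other 18 libraries were all Xist-low. Set 1 replicates 2 and 3 differed from each other by a chi-square of 7.03 per degree of freedom, against 123 to 344 in the other pairs within a set, so they are closer than any other pair but differ by more than counting noise. Set 1 replicate 1 stood apart from them, at 258 and 244.

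The sets differed at many autosomal genes. Of 19484 autosomal genes tested, edgeR called 2038 (10.5%) at an adjusted p under 0.05, 770 (3.95%) higher and 1268 (6.51%) lower in set 2. Values of the sets did not overlap for 6773 genes, 34.8% of those tested, and 1982 of the called genes were among them. The median log2 difference over all 19484 genes was 0.02. The number of calls depended on single libraries: it was 1276, 827 and 987 without set 1 replicate 1, 2 and 3, and 1122 and 634 without set 2 replicate 4 and 5. Without set 2 replicate 6 it was 1983. All 2038 genes kept their direction in each of these 6 fits. Sex and any difference of stock, date or preparation run with the set and cannot be told apart.

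**Figure D1:**
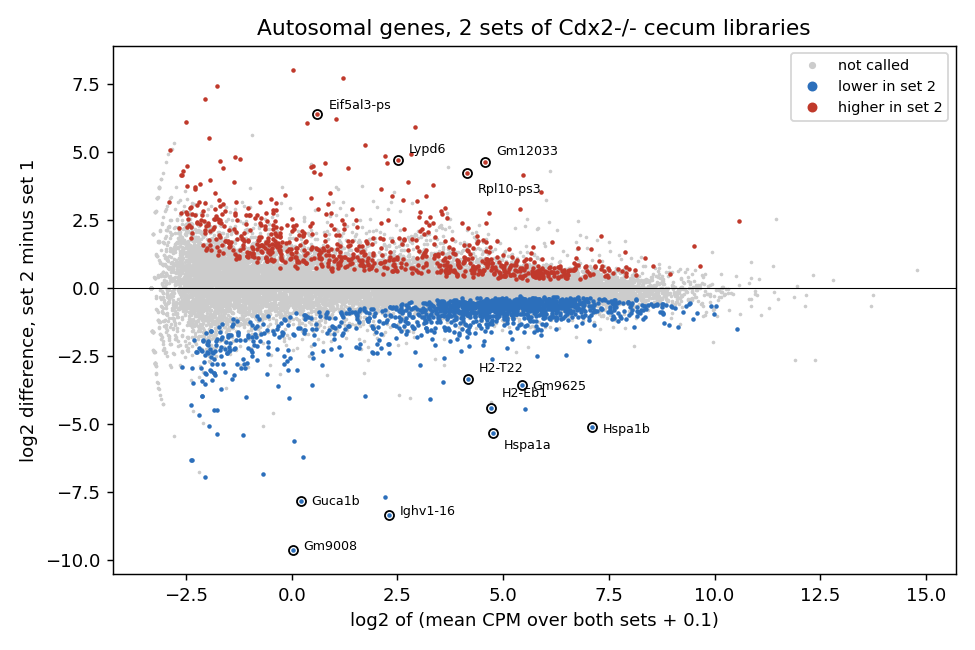
Log2 difference of each of the 19484 autosomal genes tested (y axis, set 2 minus set 1) against its mean level over the 6 libraries (x axis, log2 CPM), with genes called higher in red, called lower in blue and named examples circled. Most of the 2038 called genes lie within a few log2 units of 0, and a few such as Hspa1a, H2-Eb1 and Gm9008 lie far below it.

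Among H2 genes the differences were large and limited to a few members. Of the 33 tested, H2-Eb1, H2-T22 and H2-T23 were called lower and H2-M9 higher. The share called was near the 10.5% of all autosomal genes. H2-Eb1 (ENSMUSG00000060586; GRCm38 chromosome 17, 34305867 to 34316674, plus strand), which encodes the beta chain of the class II E molecule, was at 35.8, 59.5 and 55.3 CPM in set 1 and at 2.78, 3.33 and 0.978 CPM in set 2. Every set 1 library was above every set 2 library. The log2 difference was -4.40 ± 0.77 (adjusted p = 0.00207, edgeR). H2-T22, a nonclassical class I gene, was at 25.6, 38 and 34.2 CPM against 3.26, 3.01 and 3.31 CPM, and H2-T23, which encodes Qa-1, at 89.4, 103 and 93.2 CPM against 18.4, 17.2 and 14.7 CPM. Both groups of values were again separate, with log2 differences of -3.35 ± 0.63 and -2.51 ± 0.48 (adjusted p = 0.00329 and 0.0036, edgeR). These calls held without any 1 library. H2-M9 was the only one of the 33 H2 genes tested that was called higher (1.46 ± 0.46, adjusted p = 0.0499, edgeR), from 0.738 ± 0.387 to 2.02 ± 0.251 CPM (SD, n = 3), and it lost that call without any 1 of the 6 libraries (1.09 without set 1 replicate 1 to 1.83 without set 1 replicate 3).

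The other 29 H2 genes were not called. The class II genes next to H2-Eb1 did not follow it: H2-Aa was at 88.5, 71.0 and 67.7 CPM in set 1 and 152, 181 and 45.5 CPM in set 2, and H2-Ab1 differed by 0.20 ± 0.57. Over 12 class II genes tested 1, H2-Eb1, was called lower and none higher, with a median of 0.22, and at an unadjusted p under 0.05 there were 3. The share called lower over all autosomal genes was 6.51%. The set 2 library with the lowest H2-Aa, replicate 6, had the lowest summed class II level, a sum that includes H2-Aa itself. That sum was 153 CPM, against 386 to 449 CPM in set 1 and up to 580 CPM in set 2. H2-Ea-ps, the locus of the E alpha chain, was at 1.19, 16.5 and 16.6 CPM in set 1 and 3.32, 5.30 and 1.09 CPM in set 2. WT cecum, Cdx2+/- cecum and WT stomach libraries held at most 0.0837 CPM of it. Among classical class I genes, H2-K1 was at 578, 756 and 719 CPM against 340, 278 and 336 CPM (-1.10 ± 0.47, adjusted p = 0.14, edgeR; adjusted p = 0.0209 with the 6 libraries fitted alone), while H2-D1 differed by 0.50 ± 0.46. H2-DMb1 and H2-M2 had log2 differences of -1.12 and -1.13, and H2-T10, H2-T-ps, H2-M11, H2-Eb2 and H2-Q3 lay between 1.42 and 1.80 without a call. H2-T-ps was called without set 1 replicate 1 (adjusted p = 0.0315, edgeR) and by DESeq2 (adjusted p = 0.0383). The remaining H2 genes, H2-K2, H2-Oa, H2-DMa, H2-DMb2, H2-Ob, H2-Q1, H2-Q2, H2-Q4, H2-Q5, H2-Q6, H2-Q7, H2-Q10, H2-T24, H2-Bl, H2-T3, H2-M5 and H2-M3, lay between -0.80 and 0.72. H2 genes are close relatives, and reads that match several of them were not counted, so a value of one member can depend on how well its allele matches the reference.

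**Figure D2:**
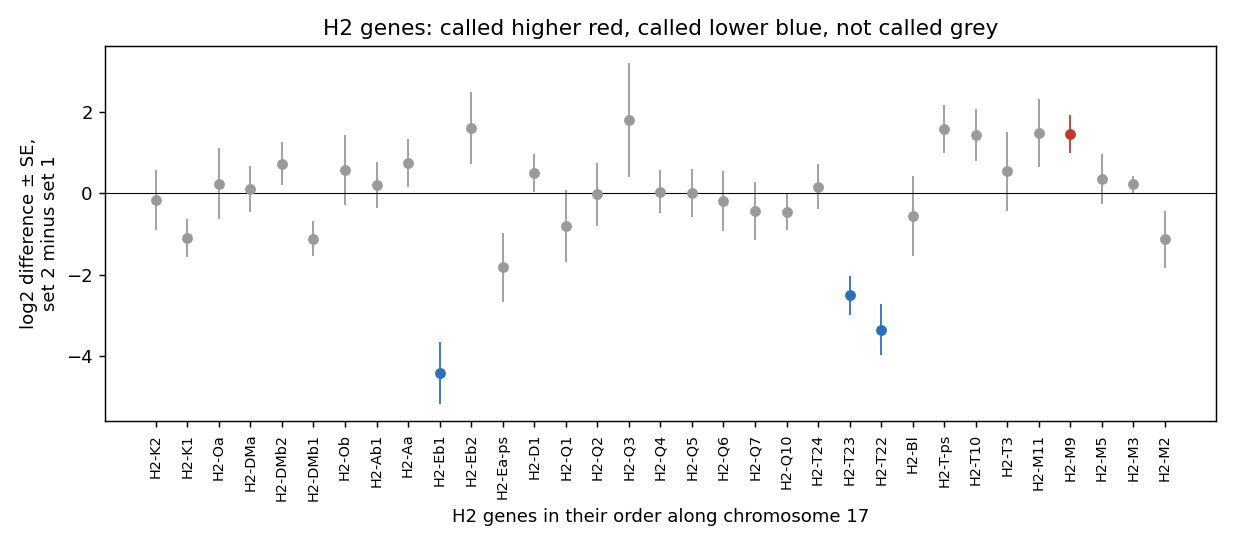
Log2 difference ± SE (y axis, set 2 minus set 1) of the 33 H2 genes tested, in their order along chromosome 17 (x axis), with blue for called lower, red for called higher and grey for not called. H2-Eb1, H2-T23 and H2-T22 stand below -2, while their neighbours lie on both sides of 0.

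Similar low and high levels of H2-Eb1 and H2-T22 were seen in other groups of the series. H2-Eb1 was at 47.9 to 112 CPM in WT cecum, 43.9 to 60.1 CPM in Cdx2+/- cecum and 50.7 to 64.9 CPM in WT stomach, as in set 1. It was at 0.647 to 2.23 CPM in Cdx2-/-;Apc+/- cecum, as in set 2, and at 1.70 to 14.9 CPM in Cdx2-/-;Apc+/- ileum and 8.23 to 31.1 CPM in Apc+/- ileum. H2-T22 had medians of 61.5, 39.4 and 24.2 CPM in WT cecum, Cdx2+/- cecum and WT stomach and of 2.78, 2.05 and 2.63 CPM in the 3 groups with the mutant Apc allele. Set 1 and set 2 share the labelled Cdx2 genotype and the tissue and yet lay on opposite sides. The promoter of H2-Eb1 is shown because class II promoters carry a Y box, CCAAT in either orientation, which the factor NF-Y binds. Its 250 bases before the start (RefSeq, GRCm38.p6, chr17:34305617-34305866, plus strand, 5′ to 3′) hold 2 matches, in capitals.
H2-Eb1: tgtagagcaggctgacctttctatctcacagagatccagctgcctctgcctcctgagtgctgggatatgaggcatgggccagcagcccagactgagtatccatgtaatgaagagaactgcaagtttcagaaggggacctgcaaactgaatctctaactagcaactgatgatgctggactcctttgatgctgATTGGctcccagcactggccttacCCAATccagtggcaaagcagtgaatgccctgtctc
The matches lay 59 to 55 and 35 to 31 bases before the start. CCAAT on either strand is in 33.8% of the 32851 promoter windows. Counted by gene, 8 of the 8 class II list genes that have a window hold it in at least 1, so the reference letters do not set H2-Eb1 apart from its uncalled neighbours.

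A few autosomal genes were present in 1 set and nearly absent from the other. Counting a gene as on at 1 CPM or more in all 3 libraries of a set and off at 0.1 CPM or less in all 3 of the other, 4 of the 34850 autosomal genes listed (0.0115%) were on in set 1 alone and 1 (0.00287%) in set 2 alone. Both the names and the numbers follow from the comparison itself and are a description. Gm9008 (ENSMUSG00000072476; chromosome 6, 76495432 to 76497784, minus strand), a predicted protein-coding gene, had 1.29, 2.17 and 2.03 CPM in set 1 and no read in set 2, so it was at least 27.5-fold lower there with 3 reads per library as the floor. It was also without a read in Cdx2-/-;Apc+/- cecum, at most 0.0223 CPM in both ileum groups, and between 2.43 and 3.47 CPM in WT cecum, Cdx2+/- cecum and WT stomach. Over the 8 groups, libraries with Gm9008 at 1.29 CPM or more had H2-Eb1 at 35.8 CPM or more, and the others had H2-Eb1 at 31.1 CPM or less.

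The other 3 genes on in set 1 were low in every other group. The immunoglobulin heavy chain segment Ighv1-16 was at 5.45, 11.6 and 12 CPM in set 1, at most 0.0613 CPM in set 2 and at most 0.111 CPM in the other 18 libraries. Guca1b, which encodes a guanylate cyclase activator of photoreceptors, was at 1.5, 2.63 and 2.18 CPM against at most 0.0204 CPM in set 2, and reached 0.705 CPM in 1 Apc+/- ileum library. Pbp2, which encodes a phosphatidylethanolamine binding protein, was at 1.16, 2.77 and 2.61 CPM against at most 0.0768 CPM in set 2 and at most 0.13 CPM elsewhere. Pebp1, the widely expressed gene of the same family, was at 172 ± 12 against 113 ± 14.0 CPM (SD, n = 3; -0.61 ± 0.17), a call that was lost without any 1 library but set 2 replicate 6 (-0.53 to -0.66) and was named after its values were seen. Set 1 replicate 1 was the lowest of its set for all 4 genes. Without it, 7 genes counted as on in set 1 alone and 7 as on in set 2 alone. With thresholds of 2 and 0.2 CPM the counts were 1 and 1, and with 0.5 and 0.05 CPM they were 3 and 2.

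The gene on in set 2 alone was the processed pseudogene Eif5al3-ps (chromosome 5, 90132229 to 90132675, plus strand), at 5.11, 1.35 and 2.00 CPM against 0.0544, 0.0317 and 0 CPM in set 1. Its level was 1.12 to 5.87 CPM in Cdx2-/-;Apc+/- cecum and 2.67 to 11 CPM in the ileum groups, and at most 0.0868 CPM in WT cecum, Cdx2+/- cecum and WT stomach. Eif5a, the translation factor gene that its name points to, was lower in set 2 by the call (-0.65 ± 0.20, adjusted p = 0.0459, edgeR), at 452, 461 and 442 CPM against 268, 227 and 371 CPM. That call was lost without any 1 of 5 libraries (-0.65, -0.63, -0.66, -0.60 and -0.50 without set 1 replicate 1, 2, 3 and set 2 replicate 4, 5). Without set 2 replicate 6, 3 genes counted as on in set 2 alone.

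**Figure D3:**
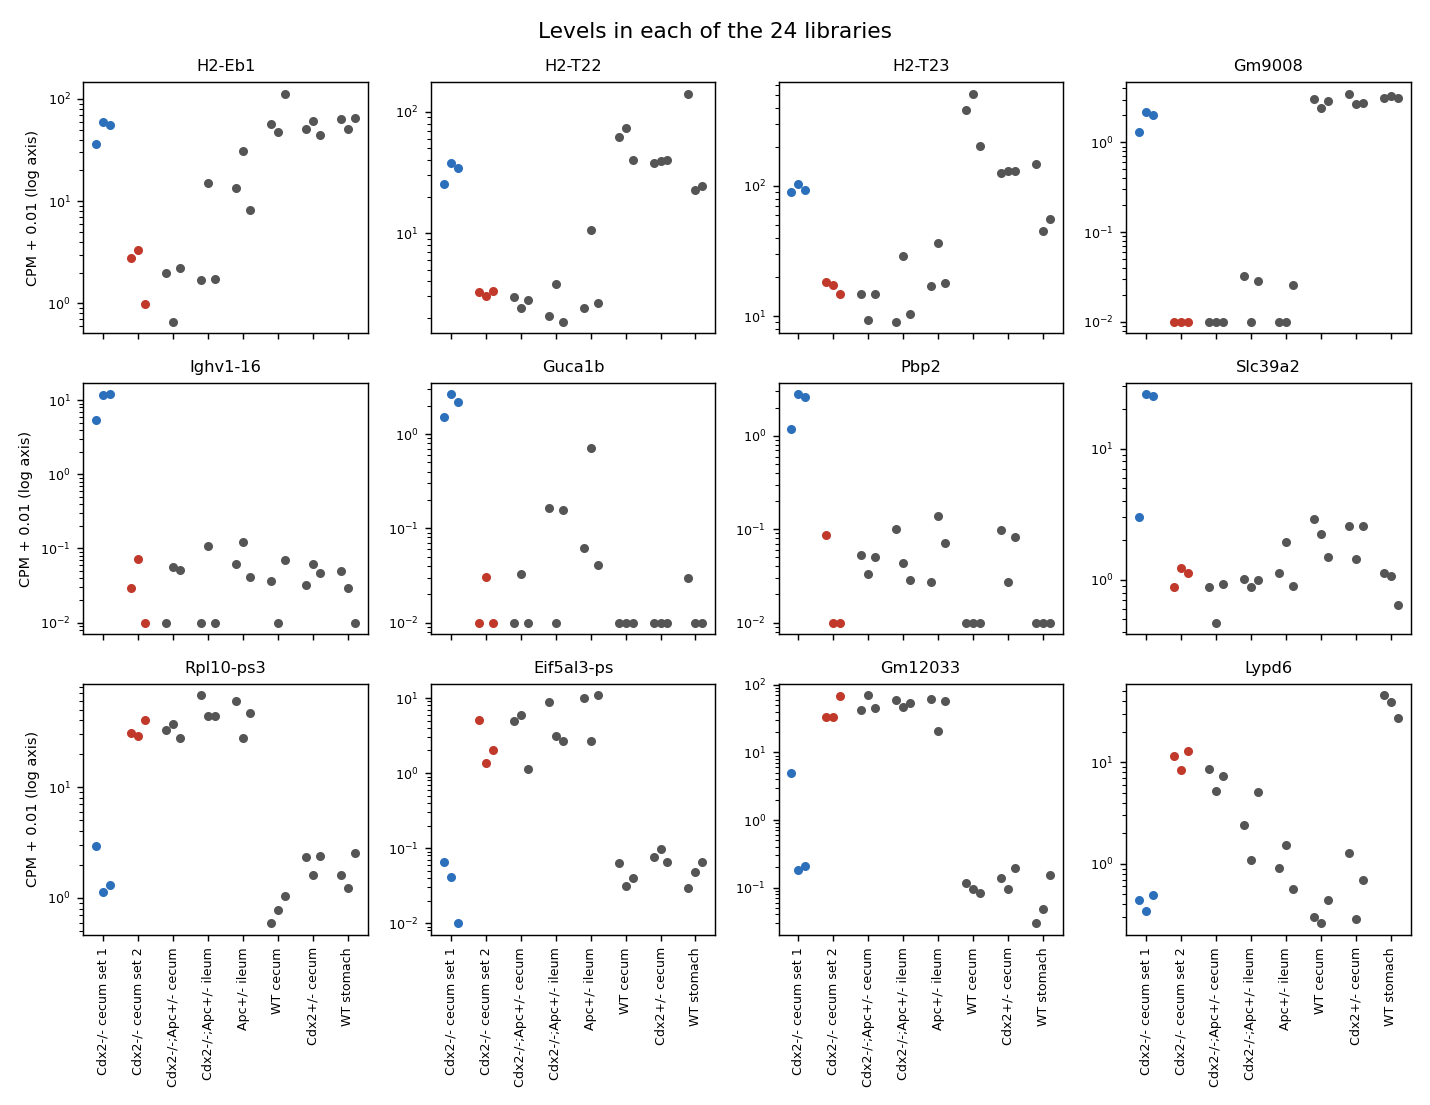
Level (y axis, CPM + 0.01, log axis) of 12 named genes in each of the 24 libraries, 3 points for each of 8 groups (x axis), with set 1 in blue and set 2 in red. H2-Eb1, H2-T22, H2-T23 and Gm9008 are higher in set 1, WT cecum, Cdx2+/- cecum and WT stomach than in set 2 and the 3 groups with the mutant Apc allele, Rpl10-ps3, Eif5al3-ps and Gm12033 are lower there, and Ighv1-16, Guca1b and Pbp2 are high in set 1 alone.

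Processed pseudogenes were called more often than protein-coding genes. Of 1065 tested, 55 were higher and 190 lower in set 2, together 23% against 9.7% of 15804 protein-coding genes. Lower calls outnumbered higher ones without any 1 library. They fell to 123 and 119 without set 1 replicate 1 and 2 and to 108 and 93 without set 2 replicate 4 and 5, and higher calls to 31, 30 and 35 without set 1 replicate 2 and 3 and set 2 replicate 5. Among the 1065, several with high counts were chosen after their values were seen. Gm9625 (chromosome 13, 67810246 to 67811200, plus strand) was at 75.0, 82.2 and 81.6 CPM in set 1 and 6.59, 5.95 and 7.80 CPM in set 2 (-3.55 ± 0.44, adjusted p = 0.000106, edgeR). It was at most 2.97 CPM in WT cecum, Cdx2+/- cecum and WT stomach, and at 5.70 to 20.1 CPM in the 3 groups with the mutant Apc allele, so no other library reached the level of set 1. Gm8730 (chromosome 8, 102864845 to 102865798, minus strand) was at 141, 164 and 146 CPM against 25.6, 24.2 and 32.5 CPM (-2.46 ± 0.18), with the smallest adjusted p of all autosomal genes, 1.03e-07 by edgeR.

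Other pseudogenes were higher in set 2. Rpl10-ps3, named as a copy of the ribosomal protein gene Rpl10 and listed as protein-coding in the annotation (chromosome 9, 50344201 to 50344968, minus strand), was at 2.91, 1.12 and 1.29 CPM in set 1 and 30.5, 28.8 and 40.5 CPM in set 2 (4.21 ± 0.39, adjusted p = 2.2e-06, edgeR). It was at 27.6 to 67.6 CPM in the 3 groups with the mutant Apc allele and at 0.583 to 2.51 CPM in WT cecum, Cdx2+/- cecum and WT stomach, the reverse of H2-Eb1. Gm12033 was at 5.02, 0.174 and 0.202 CPM against 33.3, 34.0 and 69.2 CPM (4.63 ± 0.84, adjusted p = 0.00269, edgeR), with set 1 replicate 1 well above its own set. It was not called with the 6 libraries fitted alone. Gm13456 was at 9.83, 2.31 and 1.90 CPM against 100, 35.7 and 117 CPM (4.16 ± 0.51), again with set 1 replicate 1 the highest of its set. The other 18 libraries held 53.3 to 248 CPM of it. Here set 1 was the lowest group, and set 2 replicate 5 also lay below those 18 libraries. Gm4149 was at 0.435, 0.0158 and 0 CPM against 6.12, 5.30 and 7.62 CPM (5.25 ± 0.91).

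The remaining pseudogenes with the largest called differences were at low levels. Among those higher in set 2, Gm1966 was at most 0.0653 CPM in set 1 and 0.934 to 9.16 CPM in set 2, and Gm5641 was at most 0.0109 CPM against 0.204 to 0.422 CPM. Gm18190 had no read in set 1 and was at least 5.56-fold higher in set 2, but its call was lost without any 1 of 5 libraries (6.91, 6.94 and 6.95 without set 1 replicate 1, 2 and 3, and 6.60 and 6.84 without set 2 replicate 4 and 5). Gm8979 overlapped between the sets and lost its call without set 1 replicate 2 (5.46), set 1 replicate 3 (5.41) or set 2 replicate 5 (3.93). Among those lower in set 2, Gm12341, Rpl35a-ps4 and Gm11966 had no read in set 2 and were at least 4.21-fold, 2.72-fold and 2.81-fold lower. Gm5537, Rpl10-ps1 and Rps6-ps2 were at 0.229 ± 0.0925, 0.347 ± 0.248 and 0.176 ± 0.0154 CPM in set 1 and at most 0.0222 CPM in set 2. The parents named by these copies were Rpl10, on the X chromosome and not called (633, 603 and 588 CPM against 505, 467 and 530 CPM), Rpl35a, not called (-0.49 ± 0.21), and Rps6, called lower (-0.63 ± 0.15, adjusted p = 0.0148, edgeR) except without set 2 replicate 5 (-0.53).

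Ribosomal protein genes are a class chosen after values were seen. Of 77 tested, 29 were called lower in set 2, none higher and the rest not called, 37.7% against the 6.51% of all autosomal genes, with a median of -0.43. Without set 2 replicate 5 the count was 9, and without set 1 replicate 1 or set 2 replicate 4 it was 19. Rps2, a protein of the small subunit, was at 687, 728 and 677 CPM in set 1 and 255, 232 and 320 CPM in set 2 (-1.37 ± 0.17, adjusted p = 0.000101, edgeR). Rps12 went from 585 ± 67.6 to 299.6 ± 32.0 CPM and Rps13 from 231 ± 1.61 to 126 ± 14.9 CPM (SD, n = 3), with log2 differences of -0.97 ± 0.17 and -0.88 ± 0.15. Other genes of the translation machinery among the smallest adjusted p-values were Eif1b, a paralog of the start codon factor Eif1, at 37.6, 36.2 and 35.1 CPM against 16.5, 13.9 and 13.5 CPM (-1.31 ± 0.12, adjusted p = 1.55e-06, edgeR), and Trmt112, a partner of methyltransferases, at 20.8 ± 1.21 against 8.08 ± 0.659 CPM. Vars, the valyl-tRNA synthetase gene within the H2 region (chromosome 17, 35000987 to 35016322, plus strand), was at 136, 260 and 227 CPM against 53.6, 50.8 and 58.3 CPM (-1.94 ± 0.20, adjusted p = 1.36e-05, edgeR). All these values were separate between the sets.

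Of 24 heat shock genes 8 were called lower in set 2 and 16 were not called, and the inducible Hsp70 genes had the largest differences. Hspa1a (ENSMUSG00000091971; chromosome 17, 34969190 to 34972156, minus strand) was at 44.6, 58.5 and 54.8 CPM in set 1 and 1.13, 1.86 and 0.911 CPM in set 2, with 3262 to 4102 reads against 41 to 91. The log2 difference was -5.33 ± 1.13 (adjusted p = 0.00717, edgeR). Its neighbour Hspa1b (chromosome 17, 34956436 to 34959238, minus strand), which encodes an almost identical protein, was at 192, 311 and 297 CPM against 8.47, 10.2 and 4.22 CPM (-5.12 ± 0.98, adjusted p = 0.00372, edgeR). Reads that match both copies were not counted, so the split between these genes is uncertain, but the direction was that of both. Other groups covered the whole range: Hspa1a was at 8.83 to 190 CPM in WT cecum, 138 to 518 CPM in Cdx2+/- cecum and 9.10 to 115 CPM in WT stomach, and at most 3.56 CPM in the 3 groups with the mutant Apc allele.

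The promoters of the genes that moved together are shown because Hsf1 binds heat shock elements, repeats of the letters GAA and TTC. The 250 bases before the annotated start (RefSeq, GRCm38.p6) are printed 5′ to 3′ on the minus strand of chromosome 17, at chr17:34972157-34972406 for Hspa1a and chr17:34959239-34959488 for Hspa1b, with matches to GAANNTTC or TTCNNGAA in capitals.
Hspa1a: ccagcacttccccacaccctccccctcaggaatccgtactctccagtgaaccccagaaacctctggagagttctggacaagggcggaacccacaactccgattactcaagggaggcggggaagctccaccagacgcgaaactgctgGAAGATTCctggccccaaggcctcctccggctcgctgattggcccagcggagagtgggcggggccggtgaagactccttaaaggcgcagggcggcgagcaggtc
Hspa1b: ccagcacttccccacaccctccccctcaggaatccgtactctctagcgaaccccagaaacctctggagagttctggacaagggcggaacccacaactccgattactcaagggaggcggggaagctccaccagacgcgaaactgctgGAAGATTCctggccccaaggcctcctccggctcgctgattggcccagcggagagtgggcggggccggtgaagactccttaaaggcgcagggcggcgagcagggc
Of 250 bases 247 were identical. The differences, Hspa1a base first and counted from 1 at the 5′ end of the printed run, were C44T, T47C and T249G, none of them in the match, which lay 104 to 97 bases before the start in both. Of 32851 promoter windows 12.8% hold at least 1 match to either pattern, each its own reverse complement. Of the 19 heat shock list genes with a window, 9 hold a match in at least 1 window, a count by gene and not by window. A match is a description of the letters and no evidence of binding.

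Over the whole heat shock list the differences were smaller and mostly not called. Of 24 members tested 8 were called lower and none higher, with a median of -0.56, and 22 of 24 lay below 0, against 6.51% lower and a median of 0.02 over all autosomal genes. Bag3, a co-chaperone of Hsp70, was at 160, 170 and 163 CPM in set 1 and 77.6, 70.7 and 52.0 CPM in set 2 (-1.30 ± 0.25, adjusted p = 0.00392, edgeR). Hsf1, the heat shock transcription factor, was at 47.9, 47.2 and 42.6 CPM against 31.5, 34.5 and 27.2 CPM (-0.56 ± 0.10, adjusted p = 0.00299, edgeR). Hspa1a, Hspa1b, Bag3 and Hsf1 were called without any 1 library, and their sets did not overlap. The Hsp40 genes Dnajb1 (86.8 ± 7.13 to 34.3 ± 8.45 CPM, -1.34) and Dnaja1 (262 ± 18.8 to 119 ± 9.77 CPM, -1.14) lost their calls without 5 of the 6 libraries in turn, with values of -1.23 to -1.41 and -1.08 to -1.20, Dnajb1 all but set 2 replicate 6 and Dnaja1 all but set 1 replicate 1. The other called members were Hspe1, the mitochondrial partner of Hsp60 (-0.75 ± 0.22), and Chordc1, an Hsp90 partner (-0.99 ± 0.31), neither of which was called without any 1 library. Without set 1 replicate 1 or set 2 replicate 6 there were 5 members called lower, and without any other library 4.

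Most immediate early genes were not called. Of 22 tested 3 were called lower and none higher, with a median of -0.52 and 5 members above 0. Over all autosomal genes 6.51% were called lower and the median was 0.02. Nr4a2, an orphan nuclear receptor, was at 22.3, 39.2 and 36.4 CPM against 10, 16.5 and 8.45 CPM (-1.48 ± 0.39, adjusted p = 0.0215, edgeR), and lost its call without set 1 replicate 2 (-1.33) or 3 (-1.40) or set 2 replicate 4 (-1.39) or 6 (-1.30). The transcription factor Myc (37.0 ± 3.42 to 20.6 ± 1.70 CPM, -0.84) and Ier2 (68.1 ± 8.06 to 30.4 ± 4.05 CPM, -1.17) had edgeR adjusted p-values just under the threshold, and neither was called without any 1 library (-0.77 to -0.90 and -1.07 to -1.28). The list count was 1 without set 1 replicate 1 or set 2 replicate 5 and 0 without each of the other 4 libraries. None of 18 endoplasmic reticulum stress genes (median -0.26), 15 NRF2 targets (-0.18) or 15 hypoxia genes (-0.00111) was called by edgeR with all 24 libraries, where 4, 0 and 3 passed an unadjusted p of 0.05 and DESeq2 called 1, 0 and 1. The edgeR fit of the 6 libraries alone called 1 endoplasmic reticulum stress gene lower and 2 hypoxia genes higher. With GC content and length corrected 1 gene of each of these 2 lists was called lower, and without set 2 replicate 6 1 hypoxia gene was.

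**Figure D4:**
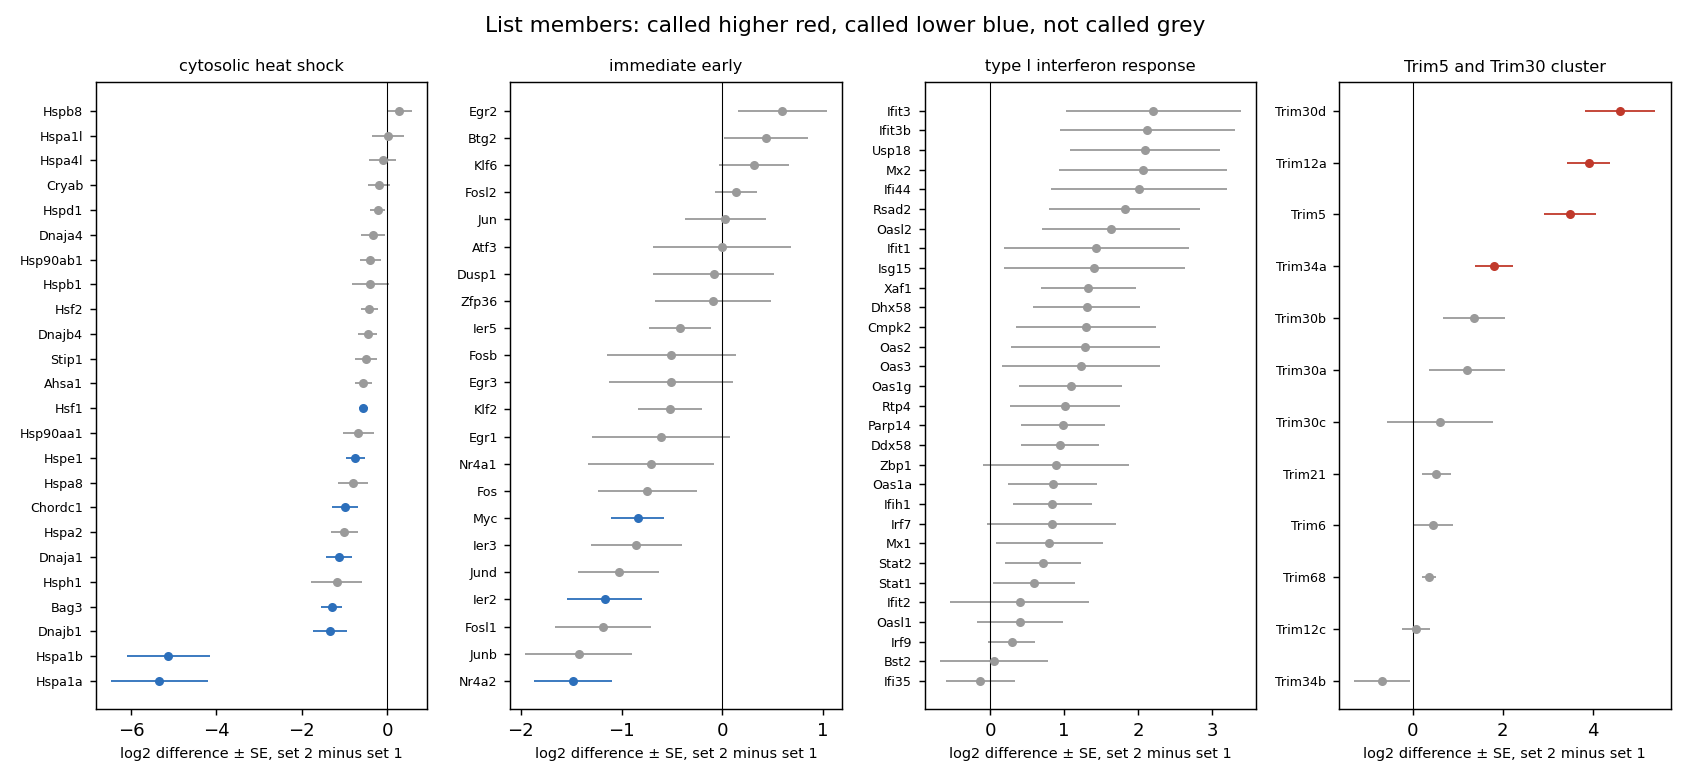
Log2 difference ± SE (x axis, set 2 minus set 1) of each member tested (y axis) of the heat shock, immediate early, type I interferon and Trim5/Trim30 lists, with blue for called lower, red for called higher and grey for not called. Heat shock members lie below 0 except for 2, interferon members above 0 except for 1 and with wide errors, and 4 Trim genes are called higher.

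Genes of the Trim5 and Trim30 cluster on chromosome 7, which encode ubiquitin ligases with antiviral roles and vary in number between mouse strains, were partly higher in set 2. Of 12 tested 4 were called higher and none lower, with a median of 0.91, against 3.95% higher over all autosomal genes. Trim30d (chromosome 7, 104470014 to 104507849, minus strand) was at 0.392, 0.364 and 0.336 CPM in set 1 and 8.41, 14.6 and 3.73 CPM in set 2 (4.60 ± 0.78, adjusted p = 0.00174, edgeR). Trim12a was at 1.28, 0.649 and 0.521 CPM against 10.2, 18.3 and 8.60 CPM (3.90 ± 0.47, adjusted p = 7.31e-05, edgeR), and Trim5 at 0.207, 0.396 and 0.269 CPM against 3.15, 4.70 and 1.91 CPM (3.49 ± 0.57). These 3 kept their calls without any 1 library. Trim34a (1.94 ± 0.581 to 6.79 ± 0.199 CPM, 1.80 ± 0.42) lost its call without set 1 replicate 2 (1.67) or 3 (1.69). The near relatives Trim12c and Trim30a differed by 0.08 ± 0.30 and 1.21 ± 0.85 and were not called. Trim30d was at 1.81 to 4.10 CPM in WT cecum, 3.08 to 7.89 CPM in Cdx2-/-;Apc+/- cecum, 11.6 to 13.5 CPM in Apc+/- ileum and at most 0.651 CPM in WT stomach.

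Interferon response genes were not called. None of 30 type I response genes was called by edgeR or DESeq2, none passed an unadjusted p of 0.05, and 29 of 30 had a higher fitted level in set 2, with a median of 1.05. With the 6 libraries fitted alone 5 were called higher. Ifit3, an antiviral RNA-sensing protein gene, was at 7.60, 2.72 and 2.12 CPM in set 1 and 18.8, 8.16 and 30.8 CPM in set 2 (2.21 ± 1.19, adjusted p = 0.246, edgeR), and Usp18, a brake on interferon signalling, at 7.71, 4.51 and 3.50 CPM against 18, 8.59 and 40.5 CPM (2.09 ± 1.01). In both genes set 1 replicate 1 and set 2 replicate 5 were close to each other and set 2 replicate 6 was the highest. Xaf1 differed by 1.33 ± 0.64. Of 22 interferon gamma response genes none was called by edgeR and 1 by DESeq2, 3 passed an unadjusted p of 0.05, and the median was 0.78. The edgeR fit of the 6 libraries alone called 2 of them higher. Cxcl9, a T cell attractant, was at 1.59, 0.459 and 0.521 CPM against 4.90, 4.09 and 4.2 CPM (2.34 ± 0.76, adjusted p = 0.0557, edgeR). It was called without set 1 replicate 1 (adjusted p = 0.045). Cxcl10 (1.76) and Socs1 (-1.01) were not called. Of 13 genes of the PYHIN cluster, DNA sensors on chromosome 1, Ifi205 alone was called higher (0.454 ± 0.0674 to 1.73 ± 0.704 CPM, 1.92 ± 0.50, adjusted p = 0.0218, edgeR), and it lost its call without any 1 library but set 2 replicate 4 (1.74 to 2.02). All 13 members had a positive difference and 6 passed an unadjusted p of 0.05, and DESeq2 and the fit of the 6 libraries alone each called 5 higher. With all 24 libraries fitted by edgeR, 3.95% of all autosomal genes were called higher.

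Most immune cell markers were not called. Of 20 macrophage markers 2 were called higher, with a median of 0.61 and 17 members above 0. Over all autosomal genes 3.95% were called higher and the median was 0.02. Cd163, a scavenger receptor of tissue macrophages, was at 1.29, 1.12 and 1.08 CPM in set 1 and 2.38, 9.04 and 21.4 CPM in set 2 (3.23 ± 0.91, adjusted p = 0.031, edgeR), and lost its call without any 1 library but set 2 replicate 4 (2.29 without set 2 replicate 6 to 3.35). Folr2, a folate receptor, went from 1.10 ± 0.312 to 3.69 ± 1.64 CPM (1.74) and lost its call without set 1 replicate 2 or 3 or set 2 replicate 5 or 6 (1.64, 1.61, 1.73 and 1.38). The summed macrophage markers ran from 579 to 631 CPM in set 1 and from 598 to 1043 CPM in set 2. In such bulk tissue more cells of a type and more RNA per cell cannot be told apart. Of 14 neutrophil, 11 mast cell, 6 eosinophil, 19 T and NK cell, 13 B cell and 9 plasma cell markers none was called by edgeR (medians of 0.60, 0.64, 0.36, 0.59, 0.60 and 0.41), where 0, 1, 1, 1, 0 and 0 passed an unadjusted p of 0.05 and DESeq2 called 0, 0, 1, 1, 0 and 0. In the same order, 12, 7, 5, 18, 12 and 7 members had a positive difference. The edgeR fit of the 6 libraries alone called 2 B cell markers higher. Without set 2 replicate 4 edgeR called 1 T and NK cell marker higher, and without set 2 replicate 6 it called 1 eosinophil marker higher. Neutrophil genes such as Trem1 and Mmp8 (1.13 ± 0.60 and 1.67 ± 0.95) and Ly6g, at 27.8, 2.39 and 2.47 CPM in set 1 and 1.98, 3.99 and 5.38 CPM in set 2, overlapped between the sets. Of 11 dendritic cell markers Flt3, a receptor of their precursors, was called higher (0.866 ± 0.231 to 2.08 ± 1.07 CPM, 1.26 ± 0.37) and lost its call without any 1 library but set 2 replicate 6 (0.78 to 1.41). Of 27 inflammatory mediators 2 were called lower, against 6.51% of all autosomal genes. They were the neutrophil attractant Cxcl1, at 20.6, 17 and 19.6 CPM against 4.22, 6.81 and 9 CPM (-1.51 ± 0.46, adjusted p = 0.0409, edgeR), and Ccl20 (5.87 ± 1.17 to 1.93 ± 0.311 CPM, -1.60 ± 0.50). Cxcl1 lost its call without any 1 library but set 2 replicate 6 (-1.27 to -1.59) and Ccl20 without any 1 library (-1.48 to -1.76).

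Other marker lists checked the tissue and its make-up. None of 12 epithelial markers was called by edgeR or DESeq2, with a median of -0.26 and none under an unadjusted p of 0.05, and their summed level was 12692 to 16310 CPM in set 1 and 7761 to 18353 CPM in set 2, so both sets held epithelium. Over all autosomal genes 3.95% were called higher, and of 17 colonocyte transport genes 3 were. In that list 9 members lay above 0 and 8 below, with a median of 0.22. The called members were the epithelial sodium channel subunits Scnn1g (0.566, 0.633 and 0.622 CPM against 3.55, 3.03 and 2.49 CPM, 2.31 ± 0.43, adjusted p = 0.00292, edgeR) and Scnn1b (0.751, 0.301 and 0.303 CPM against 3.11, 4.87 and 1.42 CPM, 2.77 ± 0.58), and the sodium/hydrogen exchanger Slc9a3 (1.34, 0.348 and 0.118 CPM against 2.82, 11.4 and 9.38 CPM, 3.64 ± 1.03). Slc9a3 lost its call without set 1 replicate 2 or 3 or set 2 replicate 5 or 6 (3.37, 3.18, 3.27 and 3.49). Of 13 gastric surface genes Capn8 was called higher (33.4 ± 7.79 to 108 ± 25.4 CPM, 1.69 ± 0.38), except without set 2 replicate 5 (1.48), while the list had a median of -0.86. Of 14 fibroblast and matrix genes fibronectin Fn1 (958, 223 and 216 CPM against 2401, 4927 and 449 CPM, 2.48 ± 0.68) and Pdgfra (78.2 ± 2.67 to 140 ± 17.4 CPM, 0.84 ± 0.23) were called higher. Fn1 overlapped between the sets and lost its call without set 1 replicate 2 (2.14) or 3 (2.13) or set 2 replicate 4 (2.53) or 5 (1.61), and Pdgfra without any 1 library but set 2 replicate 4 (0.77 to 0.86).

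In the remaining lists, Plvap of 12 endothelial genes was called lower (99.4 ± 6.19 to 53.1 ± 14.6 CPM, -0.90), Pcna of 20 proliferation genes (89.4 ± 0.71 to 55.3 ± 9.54 CPM, -0.69) and Hist1h2bc of 9 histone genes (45.1 ± 10.3 to 23.2 ± 2.45 CPM, -0.96). Over all autosomal genes 6.51% were called lower. Plvap lost its call without any 1 library but set 2 replicate 5 (-0.79 to -0.96), Pcna without set 2 replicate 5 (-0.58), and Hist1h2bc without set 1 replicate 1 (-0.76) or set 2 replicate 4 (-0.99) or 5 (-0.88). EdgeR called none of 14 class I pathway genes, 6 aryl hydrocarbon receptor targets, 13 smooth muscle, 11 enteric nerve, 10 adipocyte, 6 erythroid, 8 acinar, 13 squamous and 12 Paneth cell genes, of which 1, 1, 0, 0, 2, 0, 1, 3 and 3 passed an unadjusted p of 0.05 and DESeq2 called 1, 0, 0, 0, 0, 0, 0, 2 and 1. The edgeR fit of the 6 libraries alone called 1 class I pathway gene higher, 1 receptor target lower, and 2 squamous genes higher and 1 lower. Of the Paneth cell genes 1 was called lower without set 2 replicate 4 and 1 higher without set 2 replicate 6. All 13 smooth muscle genes had a positive and all 11 enteric nerve genes a negative difference (medians of 0.34 and -0.74). The receptor targets bear on the inducer of the transgene: Aldh3a1, a dehydrogenase, was at 53.7, 93.5 and 90.3 CPM against 38.7, 24.6 and 21.8 CPM (-1.48 ± 0.69, adjusted p = 0.18, edgeR; 0.0373 with the 6 libraries fitted alone), and Ahrr (0.54 ± 0.45) and Tiparp (0.24 ± 0.32) overlapped between the sets. Of 25 genes with known strain alleles Glo1, which detoxifies methylglyoxal, was called lower (89.6 ± 3.26 to 62.0 ± 7.42 CPM, -0.53 ± 0.12), except without set 2 replicate 5 (-0.44). That 1 gene is a smaller share than the 6.51% of all autosomal genes. With the 6 libraries fitted alone no member was called lower and 1 was called higher. In all, 32 of the 522 distinct list genes tested were called, a smaller share than the 10.5% of all autosomal genes. The number was 14 without set 1 replicate 2 or 3 or set 2 replicate 5.

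Several protein-coding genes outside these lists had large differences. Lypd6, a membrane-anchored protein gene, was at 0.435, 0.332 and 0.487 CPM in set 1 and 11.5, 8.38 and 12.8 CPM in set 2 (4.69 ± 0.56, adjusted p = 6.88e-05, edgeR). It was at 27.5 to 45.9 CPM in WT stomach, 5.18 to 8.59 CPM in Cdx2-/-;Apc+/- cecum and at most 0.431 CPM in WT cecum. Ccdc141 was at 9.60, 6.57 and 6.79 CPM against 41.3, 34.1 and 46.4 CPM (2.41 ± 0.38), and the unconventional myosin Myo7a at 7.62, 4.07 and 3.75 CPM against 14.1, 38.7 and 28.4 CPM (2.39 ± 0.51). These 3 were called without any 1 library. Set 2 replicate 6 carried 3 others: Rptn (0.768, 0.511 and 25.1 CPM in set 2), the potassium channel Kcnj15 (3.28, 2.33 and 43.3 CPM) and Ttll6 (3.67, 4.36 and 32.8 CPM) had log2 differences of 4.87, 3.39 and 2.62, and of 1.09, 0.86 and 0.86 without it, with no call. They also lost their calls without set 1 replicate 1 (5.47, 3.17 and 2.51) or 2 (4.67, 3.40 and 2.62), and Rptn and Ttll6 without set 1 replicate 3 (4.63 and 2.73). The olfactory receptor Olfr78 (1.35 ± 0.198 to 7.16 ± 1.67 CPM, 2.40 ± 0.70) was not called without any 1 library (2.24 to 2.57).

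Of those lower in set 2, the zinc transporter Slc39a2 was at 3.01, 25.9 and 25.1 CPM in set 1 and 0.864, 1.23 and 1.11 CPM in set 2 (-4.07 ± 0.59, adjusted p = 0.000523, edgeR). Set 1 replicates 2 and 3 stood alone, since no library of the other 6 groups exceeded 2.91 CPM. Aadac, an arylacetamide deacetylase, was at 17.8, 21.5 and 25.2 CPM against 2.78, 1.55 and 1.56 CPM (-3.45 ± 0.65), and at 86.6 to 103 CPM in WT cecum and 0.94 to 3.49 CPM in Cdx2-/-;Apc+/- cecum. The mitochondrial malic enzyme Me3 (45.5 ± 16.6 to 7.40 ± 2.24 CPM, -2.62 ± 0.52), the imprinted gene Phlda2 (6.16 ± 0.48 to 1.18 ± 0.181 CPM, -2.38 ± 0.46) and Ttc9 (12.3, 33.6 and 33.5 CPM against 4.68, 4.78 and 6.40 CPM, -2.32 ± 0.41) were called without any 1 library. The homeobox gene Pitx1 (56.0 ± 9.56 to 12 ± 6.58 CPM, -2.22 ± 0.54) lost its call without set 1 replicate 2 (-2.11). Bmp8b (19.7, 2.61 and 2.15 CPM against 1.92, 1.55 and 1.13 CPM, -2.41 ± 0.72) fell to -0.63 without set 1 replicate 1, with no call, and was not called without set 2 replicate 4, 5 or 6 (-2.60, -2.42 and -2.23).

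Base composition and transcript length went with the direction of the difference. When the 19484 genes were divided into quintiles by the GC content of their transcripts, 173 genes were called higher and 131 lower in the quintile with the lowest GC, and 77 higher and 527 lower in that with the highest, with medians of 0.14 and -0.24. By exon length, 183 genes were higher and 431 lower in the shortest quintile, and 249 higher and 64 lower in the longest. In the quintile with the highest GC 1.98% were higher and 13.5% lower, and in the longest 6.39% and 1.64%. These shares were 3.95% and 6.51% over all autosomal genes. Each library's median level of the highest minus the lowest GC quintile, relative to the mean of all 24 libraries, was 0.15, 0.22 and 0.04 in set 1 and -0.38, -0.25 and -0.09 in set 2 (log2 units, exact two-sided permutation p = 0.1, the smallest that 3 against 3 allows). Reads in no annotated gene made up 7.31 ± 0.405% of alignments in set 1 and 9.46 ± 1.46% in set 2 (SD, n = 3; exact two-sided permutation p = 0.1). Of the noncoding classes, antisense genes had 90 of 807 called higher and 6 lower and a median of 0.51, and lincRNA genes 44 higher and 11 lower of 619. The shares called either way, 11.9% and 8.89%, were near the 10.5% of all autosomal genes. The shares called higher were 11.2% and 7.11%, against 3.95% of all autosomal genes. Without set 1 replicate 2 and 3 the higher antisense calls were 31 and 35, and without set 2 replicate 4 and 5 they were 48 and 27, while higher lincRNA calls were 13, 17, 23 and 12 without the same libraries. The strand setting of the counting is not given in the sources used here, so reads of an antisense gene and its partner cannot be told apart.

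Part of the calls changed when GC content and length were modelled. With both corrected in each library, edgeR called 640 genes higher and 1156 lower, and 1383 of the 2038 genes were called in both fits. In the quintile with the highest GC the calls went from 77 higher and 527 lower to 142 and 251, and in the longest quintile from 249 higher and 64 lower to 80 and 195. H2-Eb1 (-4.18), Hspa1a (-5.01), Hspa1b (-4.83), Rpl10-ps3 (4.33), Lypd6 (4.64), Trim30d (4.53) and Gm9008 (-9.57) were called as before, and of the 77 ribosomal protein genes 23 were called lower and none higher. Bag3 (-1.08) and Hsf1 (-0.52) kept their calls. Of the 100 named genes that were called, 16 lost the call, among them Myc (-0.65), Ier2 (-0.62), Plvap (-0.39), Pdgfra (0.58), Flt3 (1.11), Cxcl1 (-1.42), Ccl20 (-1.60), Fn1 (2.13), Pebp1 (-0.21) and Pitx1 (-1.24). The correction was added after the differences by GC content and length were seen.

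**Figure D5:**
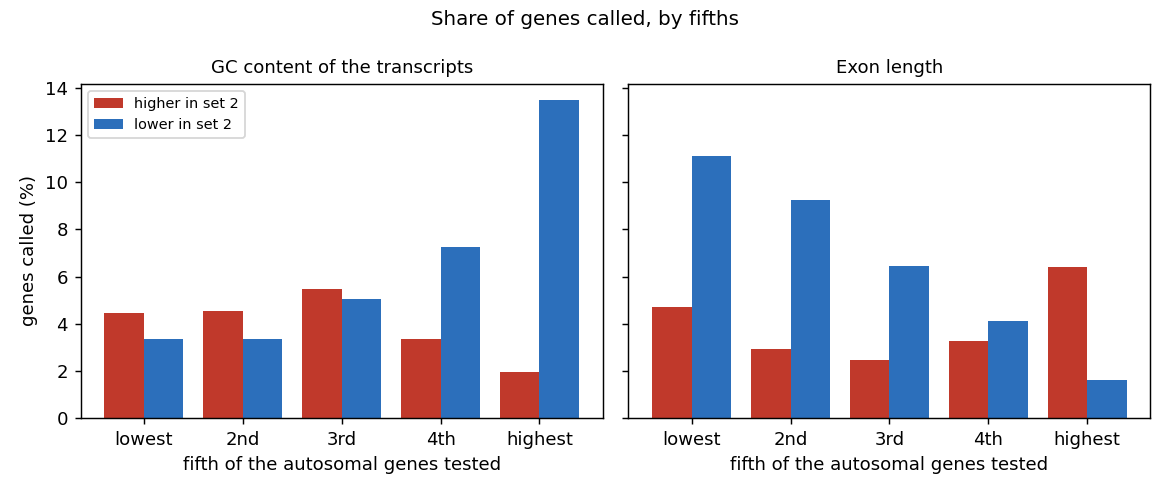
Share of genes called (y axis, %) in each quintile of the 19484 autosomal genes by GC content of the transcripts (left) and by exon length (right), with red for higher and blue for lower in set 2. Lower calls climb to 13.5% in the quintile with the highest GC and 11.1% in the shortest quintile, and higher calls to 6.39% in the longest.

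Called genes were spread over all autosomes. The share called ran from 7.82% on chromosome 1 and 7.87% on chromosome 6 to 13.5% on chromosome 7 and 13.7% on chromosome 17. Over 339 bins of 5 Mb with at least 20 tested genes the median share was 9.68%, and the highest was 29%, 9 of 31 genes, at 135000001 to 140000000 on chromosome 6. These were Pbp2, the histone H2A variant H2afj (91.3 ± 7.58 to 27.3 ± 3.25 CPM, -1.74 ± 0.23, adjusted p = 0.000251, edgeR), the pseudogene Dynlt1-ps1 (-0.93), the predicted gene Gm8994 (4.50), Emp1 (-1.16), Grin2b (2.09), Atf7ip (0.61), Wbp11 (-0.37) and Strap (-0.56), where the first 4 kept their calls without any 1 library. Of the others, Emp1, Grin2b and Atf7ip lost their calls without any 1 library but set 2 replicate 6 (-0.95 to -1.23, 1.70 to 2.31 and 0.43 to 0.70). Wbp11 lost its call without set 1 replicate 2 (-0.34) or 3 (-0.35) or set 2 replicate 5 (-0.37), and Strap without set 1 replicate 3 (-0.56) or set 2 replicate 5 (-0.45).

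The next bins were at 50000001 to 55000000 on chromosome 3 (8 of 33 genes, 24.2%) and 100000001 to 105000000 on chromosome 9 (7 of 29 genes, 24.1%). On chromosome 3, Rfxap, a subunit of the factor that drives class II genes, was at 19.6, 19.6 and 19.8 CPM against 11.4, 9.61 and 11 CPM (-0.88 ± 0.16, adjusted p = 0.0025, edgeR). Gm5641 and Rfxap kept their calls without any 1 library, while Supt20 (0.65), Ndufc1 (-0.67), Nhlrc3 (0.45), Sertm1 (-2.33), Gm16206 (1.04) and Gm21958 (1.72) lost theirs without at least 1, with values of 0.60 to 0.63, -0.54 to -0.56, 0.31 to 0.51, -1.89 to -2.98, 0.88 to 0.92 and 1.32 to 1.70 in those fits. On chromosome 9, Srprb, a subunit of the signal recognition particle receptor (36.2 ± 4.13 to 23 ± 0.459 CPM, -0.66 ± 0.14), kept its call. Ryk (-0.41), Dnajc13 (0.54), Cdv3 (-0.60) and Anapc13 (-0.61) did not, with -0.41, 0.46 to 0.59, -0.47 and -0.54 to -0.63 in the fits that lost them. Set 2 replicate 5 was among the libraries whose omission ended the call for each of these 10 genes except Gm16206, which lost it without set 1 replicate 2 or 3. Both directions occurred in each bin. Of the bins with H2 genes on chromosome 17, that from 30000001 to 35000000, with H2-Eb1 and the Hsp70 genes, held 19 called of 146 genes (13%), and that from 35000001 to 40000000 held 20 of 121 (16.5%), among them Ly6g6d (2.89 ± 0.369 to 0.887 ± 0.253 CPM, -1.70 ± 0.29, adjusted p = 0.00189, edgeR), and that of the Trim cluster on chromosome 7 held 15 of 79 (19%).

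A further group labelled with the same Cdx2 genotype served as an outside reference. The Cdx2-/-;Apc+/- cecum, which enters the fit only through the shared estimate of the spread, had a mean log2 level nearer to set 2 than to set 1 at 1927 of the 2038 called genes (94.6%), at 717 of 770 higher (93.1%) and 1210 of 1268 lower ones (95.4%). Among the 17446 genes that were not called the share was 69.3%. The group carries a mutant Apc allele that both Cdx2-/- sets lack, and like set 2 it is Xist-low, at 0.34 to 0.555 CPM. Sex, stock and preparation cannot be told apart as what it shares with set 2.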

How the data were processed

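The values are read counts per Ensembl gene, 1 column per library, as deposited by the authors, with no normalization. Per the submitters' processing notes, CASAVA, TopHat2 2.0.11, HTSeq 0.5.3p3 and the build GRCm38 were used, and per the labels' protocols total RNA from Trizol went into TruSeq mRNA libraries; the annotation release and strand setting are not stated in the sources used here. Closing rows for reads in no single gene stayed out of library sizes (in the 6 libraries, 7.31% and 9.46% of alignments on average were in no gene). The 37 mitochondrial genes listed hold 0 reads, so no mitochondrial share was computed.

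All 24 libraries in 8 groups were fitted with edgeR 4.0.16 (R 4.3.3; TMM, filterByExpr, quasi-likelihood test, 16 residual degrees of freedom), with set 2 minus set 1 as the contrast and Benjamini-Hochberg adjustment over all 20502 genes tested, autosomal or not; a call is an adjusted p under 0.05. Gene classes, positions and exon lengths came from GENCODE M21 (37607 IDs matched). Levels are CPM on TMM-scaled library sizes, and log2 levels add 0.1 CPM. The fit was tested on simulated data. DESeq2 1.42.0, other scaling and filters, each library left out and a correction for GC content and length were alternatives.

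Named genes were Cdx2 and Cdx1, the 12 largest called differences each way among protein-coding genes at 5 CPM or more with no overlap, the on/off genes, the 6 largest called pseudogenes each way, every H2 gene, list members, and called genes of the 3 densest 5 Mb bins, of which some are not reported here. Others are said to be chosen after values were seen, or serve as parents or comparisons, and Gm8730, Gm9625, Gm12033, Gm13456, Rps2, Rps12, Rps13, Eif1b, Trmt112, Vars and Ly6g6d were chosen after values were seen. Sets, members and gene lists were chosen with earlier results of these data known. Counts limit the precision through counting error only in part, since PCR copies are not independent molecules.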

Additional observations from a re-analysis of the deposited data

How the results depend on the processing

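Against 2038 called genes (770 higher, 1268 lower), leaving out 1 library gave 634 to 1983 (222 to 776 higher, 411 to 1207 lower). Adding up set 1 replicates 2 and 3 gave 921 (231 higher, 690 lower). DESeq2 called 2811, with 1319 higher and 1492 lower, so the excess of lower calls was smaller there. Without the low-count filter 492 were higher and 948 lower, and with the 6 libraries fitted alone 498 and 909. All 2038 genes kept their direction in every leave-one-out fit, 2035 with the GC and length correction and 1955 with the 6 libraries alone. List genes called, 32, were 54 with the 6 libraries, 50 with DESeq2, 14 with the added replicates and 14 to 24 with 1 library left out. On/off genes, 4 and 1, were 1 in set 1 at thresholds of 2 and 0.2 CPM and 2 in set 2 at 0.5 and 0.05 CPM and on library totals. With 1 library left out they were 4 to 7 and 1 to 7. The densest bin held 29% called at 5 Mb and 33.3% at 2 Mb. The cause of these changes was not tested. Of the 100 called named genes, 51 kept the call in all 6 leave-one-out fits and none changed sign.

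Sign changes were in uncalled values. With 1 library left out, the ranges were -0.573 to 0.328 for Cdx2, -0.897 to 1.34 for Cdx1, -0.598 to 0.686 for H2-Oa, -0.129 to 0.844 for H2-M5, -0.104 to 0.320 for H2-Q4, -0.141 to 0.442 for H2-DMa, -0.133 to 0.406 for H2-T24, -0.254 to 0.257 for H2-Q5, -0.450 to 0.303 for H2-K2, -0.413 to 0.0402 for H2-Q6, -0.0791 to 0.594 for H2-Ab1, -0.320 to 0.722 for H2-Q2, -2.005 to 0.635 for Ly6g, -0.0601 to 0.243 for Trim12c, and -0.857 to 2.21 percentage points for the share of the 10 most abundant genes. With the added replicates Cdx2 was -0.121, Cdx1 -0.00897, H2-Q4 -0.0924, H2-Q5 -0.112 and Trim12c -0.00241. H2-Q5 was -0.00642 without the filter and H2-Q2 9.2e-05 with DESeq2. With the GC and length correction H2-K2 was 0.231, H2-Q6 0.150 and H2-Q2 0.0697. No paired analysis was possible because the sets carry different replicate numbers, 1 to 3 and 4 to 6.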
